A study of Mus musculus with 1 sample.

Results

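The cells described here were neutrophil precursors of mouse bone marrow, rich in the RNA of secondary granule proteins. They were chosen by their own counts: a cell had to carry at least 200 counts of Camp and at least 20 of Ltf per 10000 of its total, under 10 of Elane, and under 5 of Retnlg and Mmp9 together. Of 10528 mouse cells with a hashtag, at least 500 genes and at most 20% of counts from mitochondrial genes, 2321 met this rule, which is 22.0% (exact Clopper-Pearson 95% interval 21.3 to 22.9%). They are called the Camp and Ltf cells below.

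The data were 1 single-cell RNA library of sorted mouse bone marrow cells, captured in the microwells of the BD Rhapsody system and amplified by the TAS-Seq method, which adds a common end to each cDNA for amplification. The sorted populations were cKit+Lin- progenitors and GMP-MoPs of 1 naive mouse and 1 mouse injected with LPS, the bacterial cell wall lipid that triggers inflammation, and cMoPs of 1 naive mouse. The pool held 5 hashtags, which are DNA barcodes on streptavidin that mark where a cell came from: 100 cells were loaded for each of A961, A962 and A964, and 15000 each for A963 and A965. The labels do not say which hashtag carried which population or mouse, nor give strain, age, dose or time, so every difference between hashtags below is a difference between 2 tags of 1 library, and treatment, animal, sex and sorted population cannot be told apart. With 1 library and no replicate of a hashtag there is no test, and every interval is a 95% interval that covers counting error only.

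Neutrophils form in the bone marrow from granulocyte-monocyte progenitors and make their granule proteins in sequence. Promyelocytes make the azurophil (primary) granules with myeloperoxidase and the serine proteases elastase, proteinase 3 and cathepsin G; myelocytes and metamyelocytes make the secondary (specific) granules with cathelicidin, lactoferrin and lipocalin 2; band cells make the gelatinase granules with Mmp9. The transcription factor C/EBPε drives the secondary granule genes, and division stops as the cells pass from the myelocyte to the metamyelocyte stage.

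Of the 2321 Camp and Ltf cells, 1087 carried A963 and 1208 carried A965. They made up 23.0% of the 4716 cells of A963 (21.9 to 24.3%) and 21.7% of the 5567 cells of A965 (20.6 to 22.8%), a ratio of A965 to A963 of 0.941 (0.867 to 1.02). The interval of that ratio holds 1 under this rule, but not under 3 others. The small hashtags held 5 of 68 cells in A961 (7.35%, 2.43 to 16.3%), 14 of 104 in A962 (13.5%, 7.56 to 21.6%) and 7 of 73 in A964 (9.59%, 3.94 to 18.8%). The ratio was 0.704 (0.642 to 0.772) when Camp had to reach 400, where A963 kept 21.5% of its cells and A965 15.1%. It was 0.843 (0.767 to 0.927) with Retnlg plus Mmp9 under 2 and 0.906 (0.830 to 0.988) with Elane under 5.

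A Camp and Ltf cell held between 8859 and 95863 counts, with medians by hashtag between 16686 (A963) and 26023.5 (A965), so the A963 cells were the shallower. The median share of mitochondrial counts was 1.52%, against 2.95% in all other cells. No barcode number occurred more than once among 10731 cells in the table. Of 190 cells that the authors named doublets, 33 met the same gene rule (17.4%), and those are not among the 2321. Scrublet, a caller that simulates doublets, marked 54 of the 2321 cells (2.33%) and 226 of all 10528 (2.15%). The hashtags differed in sex-linked RNA: Xist, transcribed from the inactive X chromosome of female cells, was at 281 CPM (the counts of a gene summed over a set of cells, scaled to one fixed total for every set) in the A963 cells and 12.9 CPM in the A965 cells, and 4 Y-linked genes summed to 6.74 and 51.7 CPM. The other cells of A963 had more Xist, at 677 CPM, and those of A965 had 11.6 CPM. Of the 1087 Camp and Ltf cells of A963, 775 had Xist counts alone, 17 Y-linked counts alone, 55 both and 240 neither. Of the 1208 of A965, 548 had Y-linked counts alone, 69 Xist counts alone, 91 both and 500 neither. What lies behind these counts was not tested. The Camp and Ltf cells of A961 and A962 were also unlike the other cells of their own hashtags in Xist. It was at 31.6 CPM against 509 in A961 and 9.27 against 456 in A962. The levels of these 19 cells of A961 and A962 are given below with no comparison.

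The name secondary-granule neutrophil precursor was set against its markers. Camp and Ltf were fixed by the rule. Of the markers that were no part of it, Ngp, Lcn2 and Chil3 had counts in all 2321 cells and Cd177 in 99.7%. They are genes of the same cells, so this is a description. Ngp and Lcn2 also had counts in 100% of the early neighbours of A963 and A965 described below. Detection of Ngp and Lcn2 thus does not set the cells apart from those neighbours, while their levels, given below, differed. The sorts named in the labels select Kit or monocyte progenitors, and the Camp and Ltf cells had little Kit RNA: Kit, the stem cell factor receptor, was at 13.9 CPM in A963 and 2.39 CPM in A965, against 26.7 and 18.2 CPM in the cells that were neither Camp and Ltf cells nor their neighbours described below. Ly6g, the Gr-1 antigen of granulocytes, was at 321 and 250 CPM and had counts in 91.9% of the cells.

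Markers of other cell types were low. The summed level of 8 monocyte markers was 103 CPM in A963 and 94.9 CPM in A965, against 1161 and 1584 CPM in cells outside the rule and its neighbours. For 7 dendritic cell markers it was 76.4 and 46.7 CPM against 595 and 689, and for 6 lymphoid markers 13.9 and 6.31 CPM against 111 and 101, with 1 of the 6 at 0 in each hashtag. The 7 erythroid markers reached 452 CPM in A963 and 259 CPM in A965, against 13140 and 1813 CPM, with none at 0. Markers of megakaryocytes (30.9 and 24.9 CPM), basophils and mast cells (8.75 and 30.0), eosinophils (2.92 and 3.11), stem cells (11.6 and 8.97) and macrophages (33.3 and 22.1) made up the rest.

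Cells lay close to each limit of the rule on both sides. The cell just inside the Camp limit had 200.488 counts per 10000 and the one just outside 199.349; for Ltf they had 20.0571 and 19.8884, for Elane 9.92665 and 10.0396, and for Retnlg plus Mmp9 4.99695 and 5.0025. Only 28 cells failed the Camp limit alone and 36 the Ltf limit alone, while 393 failed only the Elane limit and 383 only the Retnlg and Mmp9 limit.

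**Figure D1:**
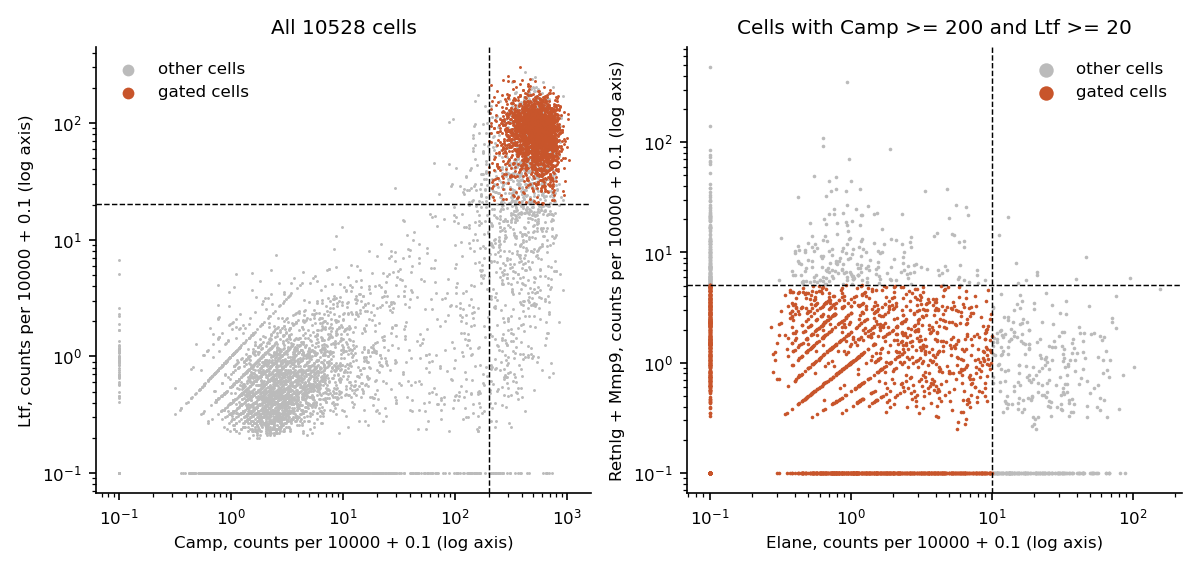
Each point is 1 cell. Left, Camp against Ltf in all 10528 cells, as counts per 10000 with 0.1 added, on log axes; right, Elane against Retnlg plus Mmp9 in the cells with Camp of at least 200 and Ltf of at least 20. Orange cells met the rule, grey cells did not, and dashed lines mark the limits; the orange cells share the upper right corner of the left plot with grey cells that failed another limit, among them the 393 and 383 that failed only the Elane or only the Retnlg plus Mmp9 limit on the right.

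Promoter sequences of the Camp, Ltf, Ngp and Lcn2 genes are shown because Camp and Ltf are the genes that chose the cells and Ngp and Lcn2 are the secondary granule genes with the most counts among those that did not. Each is the 250 bases before the RefSeq transcript start (GRCm38.p6), read 5′ to 3′ on the gene's strand: chr9:109849457-109849706 on the minus strand for Camp, chr9:111019042-111019291 on the plus strand for Ltf, chr9:110419558-110419807 on the plus strand for Ngp and chr2:32387740-32387989 on the minus strand for Lcn2. Capitals mark the C/EBP-like sequence TTGCNNAA on either strand, where N is any base (TTNNGCAA on the opposite strand).
Camp: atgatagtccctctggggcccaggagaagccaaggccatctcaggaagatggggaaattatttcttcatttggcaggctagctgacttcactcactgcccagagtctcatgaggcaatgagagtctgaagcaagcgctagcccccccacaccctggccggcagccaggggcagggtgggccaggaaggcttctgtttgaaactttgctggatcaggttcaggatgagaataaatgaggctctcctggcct
Ltf: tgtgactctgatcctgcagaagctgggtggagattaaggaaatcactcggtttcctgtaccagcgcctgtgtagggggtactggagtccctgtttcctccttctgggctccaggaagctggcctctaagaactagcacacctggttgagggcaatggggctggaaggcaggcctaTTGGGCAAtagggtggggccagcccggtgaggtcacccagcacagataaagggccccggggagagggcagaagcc
Ngp: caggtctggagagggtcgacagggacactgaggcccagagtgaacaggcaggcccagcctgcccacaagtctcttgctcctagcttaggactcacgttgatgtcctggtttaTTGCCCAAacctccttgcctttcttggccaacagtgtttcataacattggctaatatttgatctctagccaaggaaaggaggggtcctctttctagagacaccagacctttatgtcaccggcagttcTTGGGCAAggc
Lcn2: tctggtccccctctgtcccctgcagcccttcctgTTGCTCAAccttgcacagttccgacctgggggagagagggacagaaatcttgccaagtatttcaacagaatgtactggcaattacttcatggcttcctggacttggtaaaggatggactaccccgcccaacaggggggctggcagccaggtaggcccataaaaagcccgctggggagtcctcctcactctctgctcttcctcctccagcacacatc
The Camp window held 0 matches, Ltf 1 that begins 75 bases before the start, Ngp 2 that begin 138 and 11 bases before it, and Lcn2 1 that begins 216 bases before it. The windows of Chil3 and Cd177 held 0. Of 32851 RefSeq promoter windows of the same length, 3142 held a match (9.56%). A match is only a run of letters, and a window without one says nothing of C/EBP factors, whose sites also lie outside these letters and these windows. Camp, Ngp and Ltf lie on chromosome 9 within 1.20 Mb of each other, while Lcn2 lies on chromosome 2, Chil3 on 3 and Cd177 on 7.

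The secondary granule genes made up a large part of each cell's RNA, and their levels were broad between cells. Per 10000 counts of a cell, Camp, the cathelicidin antimicrobial peptide precursor, ran from 200 through a median of 527 to 1031. Ltf, the iron-binding lactoferrin, ran from 20.1 through 83.9 to 299.9. Ngp, a cystatin-like neutrophil granule protein, ran from 115 through 456 to 780, and Lcn2, which binds bacterial siderophores, from 42.9 through 202 to 548. Chil3, a chitinase-like protein, ran from 5.17 through 89.5 to 233, and Cd177, a surface protein of neutrophils, from 0 through 12.4 to 39.3. The lowest values of Camp and Ltf are the limits of the rule, and those of the other 4 genes are not.

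Among the 6 markers, Camp differed most between A963 and A965. Camp was at 61029 CPM in A963 and 45258 CPM in A965, a ratio of 0.742, and at 51473, 44325 and 58837 CPM in A961, A962 and A964. The median cell had 635 Camp counts per 10000 in A963 and 452 in A965, with the middle 80% of cells between 451 and 781 in A963 and between 304 and 586 in A965, so the groups overlapped. Camp was used by the rule and this is a description.

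The other markers lay closer together. Ltf was at 7858 CPM in A963 and 8695 in A965 (ratio 1.11), and at 11674, 8524 and 8421 in A961, A962 and A964. Ngp was at 46778 and 42710 CPM (0.913), and at 46959, 44826 and 42516 in the small hashtags in the same order. Lcn2 was at 19359 and 20178 CPM (1.04), with 19520, 22362 and 20063 in the small hashtags. Of the 6 markers, Lcn2 and Ngp had the ratios of A965 to A963 nearest to 1. Chil3 was at 10239 and 7961 CPM (0.777), with 10725, 5811 and 9036 in the small hashtags, and Cd177 at 1169 and 1303 CPM (1.12), with 1708, 1171 and 1359. The small hashtags rest on 5, 14 and 7 cells. Levels were far lower in globin-rich cells outside the rule, which should not make these proteins. There Camp was at 608 CPM in A963 and 951 CPM in A965. Ltf was at 56.8 and 147 CPM there, and Cd177 at 13.3 and 40.5 CPM. Whether these counts came from free RNA or from doublets was not tested.

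**Figure D2:**
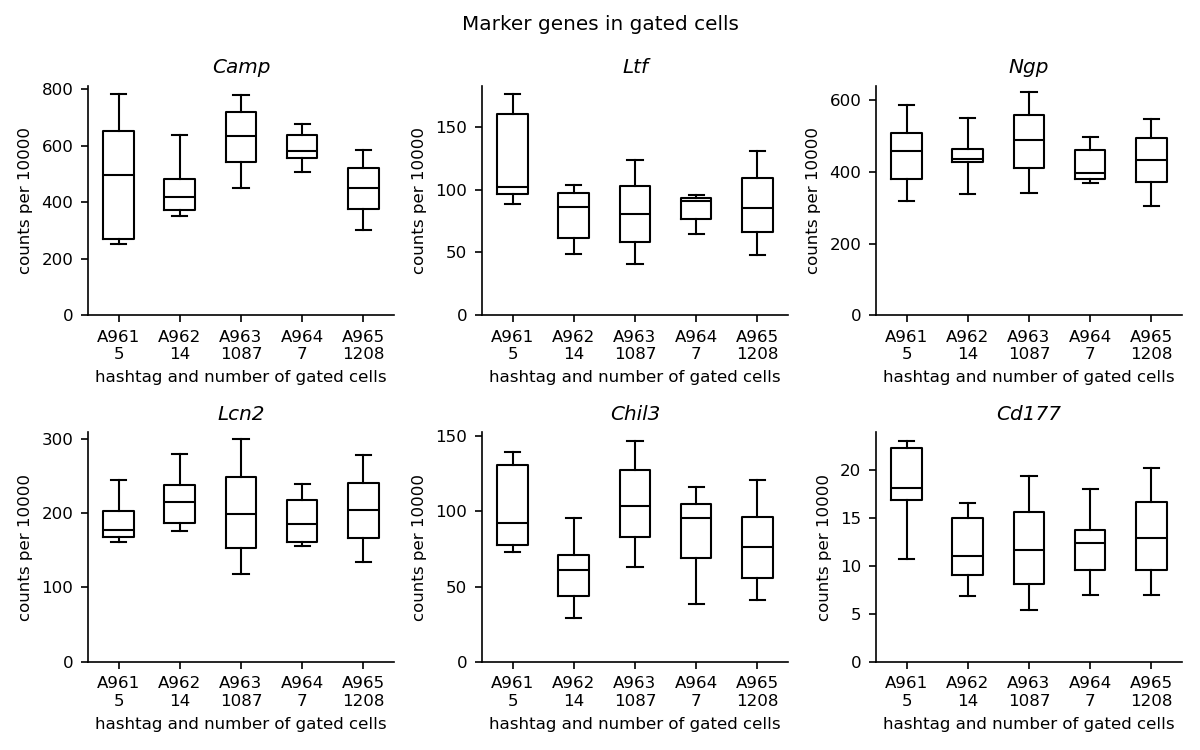
Counts per 10000 of a cell's total for the 6 markers in the Camp and Ltf cells of each hashtag, with cell numbers under the axis; boxes span the quartiles, the line is the median and whiskers reach the 10th and 90th percentiles. Camp boxes of A963 and A965 are offset (medians 635 and 452), while those of Ngp and Lcn2 largely overlap.

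S100a9 and S100a8, the calcium-binding subunits of calprotectin, took 14.1% and 9.11% of all counts in A963 and 13.5% and 8.86% in A965. Camp took 6.10% and 4.53%, Ngp 4.68% and 4.27%, Lcn2 1.94% and 2.02%, Chil3 1.02% and 0.796%, and Ltf 0.786% and 0.870%. The 10 most abundant genes together held 43.5% of counts in A963 and 40.3% in A965. Since a few genes held so much of the total, the comparisons below between A965 and A963 and with neighbouring cells were also rescaled. The scalings were median-of-ratios and totals without the 10 most abundant genes of the sets compared. Levels by bins of Ltf and in cells outside the rule and its neighbours are given by CPM only.

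The Camp and Ltf cells were then compared with cells that still carried azurophil transcripts, 94 cells of A963 and 194 of A965 that had at least 10 counts per 10000 of Elane and of Fcnb, under 200 of Camp and under 5 of Retnlg plus Mmp9, called early neighbours. They were 1.99% of A963 (1.61 to 2.43%) and 3.48% of A965 (3.02 to 4.0%), a ratio of 1.75 (1.36 to 2.26). Between the early neighbours and the Camp and Ltf cells, the azurophil granule genes were far lower, the secondary granule genes far higher, and the chaperones of the endoplasmic reticulum and most ribosomal protein genes lower. Because Elane and Camp separate the sets by choice, these contrasts describe the 2 ends of that choice.

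Called means at least 1.5-fold, on the log2 scale with 10 CPM added, among genes of at least 10 CPM in either set. By this, 140 of 7173 genes were higher in the Camp and Ltf cells in both hashtags (1.95%) and 1817 lower (25.3%). Within A963 it was 3.98% higher and 34.4% lower, and within A965 2.26% and 36%. The split rests on the scaling: by median-of-ratios it was 561 higher and 247 lower, and by totals without the 10 most abundant genes 510 and 557. The median log2 ratio of all genes was -0.40 in A963 and -0.46 in A965 by CPM, and 0.07 and 0.06 by median-of-ratios.

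Of the azurophil granule genes at 10 CPM or more, 8 of 9 were lower in each hashtag (Elane, a gene of the rule, is 1 of them), with a median log2 ratio of -4.92 in A963 and -3.40 in A965. Mpo, myeloperoxidase, was at 6788 CPM in the early neighbours and 80.1 CPM in the Camp and Ltf cells of A963, and at 5077 and 110 CPM in A965. The ratio of the Camp and Ltf cells to the early neighbours was 0.0118 (0.0112 to 0.0124) and 0.0217 (0.0209 to 0.0224). Ctsg, cathepsin G, went from 2200 to 45.7 CPM in A963 and from 2638 to 32.0 in A965. Srgn, the proteoglycan core that holds granule proteases, went from 2750 to 55.6 CPM and from 3317 to 119 CPM. Prtn3, proteinase 3, was still at 269 CPM in A963 and 772 CPM in A965, from 8410 and 8264 CPM in the early neighbours. The 1 member not called was Serpinb1a, an inhibitor of these proteases, at 1334 and 1244 CPM in A963 and 1993 and 1444 CPM in A965.

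Other genes of the early neighbours were lower as well. Dmkn was at 233 and 203 CPM in the early neighbours of A963 and A965 and at 1.91 and 7.12 CPM in the Camp and Ltf cells. Cst7, cystatin F, went from 348 to 15.1 CPM and from 265 to 16.1 CPM, and Nkg7, a membrane protein of cytotoxic granules, from 1146 to 94.3 CPM and from 968 to 96.7 CPM. Prss57, a serine protease of azurophil granules, went from 413 to 56.3 CPM in A963 and from 409 to 57.1 CPM in A965. Gstm1, a glutathione transferase, went from 794 to 55.5 CPM in A963 and from 892 to 119 CPM in A965.

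Of the secondary granule genes, 10 of 14 were higher and 1 lower in A963, and 10 of 13 higher and 0 lower in A965, with Camp and Ltf, which the rule used, among those higher. The 1 lower was Mmp8, at 14.2 CPM in the early neighbours of A963 and 1.81 CPM in the Camp and Ltf cells; 1 early cell held 32 of its 39 counts, and without that cell it was at 2.60 CPM. Their median log2 ratio was 2.57 and 1.81 by CPM, and 3.03 and 2.49 by median-of-ratios. Ngp was 11.6-fold higher in A963 (11.4 to 11.8) and 7.0-fold in A965 (6.93 to 7.06), from 4027 and 6104 CPM in the early neighbours. Lcn2 was 13.3-fold higher in A963 (12.9 to 13.8) and 6.02-fold in A965 (5.94 to 6.10), from 1451 and 3351 CPM. The early neighbours of A965 thus already held more Ngp and Lcn2 than those of A963, as they did Camp (9307 and 6285 CPM). Orm1, orosomucoid, was at 221 and 199 CPM in the Camp and Ltf cells from 13.1 and 37.2 CPM, and Olfm4, which marks a subset of neutrophils, at 102 and 71.1 CPM from 6.91 and 1.54 CPM.

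Genes outside the granule lists with the largest higher ratios were Ifitm6, Plbd1, St3gal5, Pirb, Lyz2, Chil1 and AA467197. Ifitm6, a member of the interferon-induced transmembrane protein family, was at 2309 CPM in A963 and 4686 in A965, from 216 and 383 CPM. Plbd1, a phospholipase B-like granule protein, was at 183 and 143 CPM from 4.73 and 6.30. AA467197 was at 213 and 425 CPM from 9.45 and 31.8, and St3gal5, which makes the ganglioside GM3, at 149 and 150 CPM from 6.91 and 3.92. Pirb, an inhibitory receptor, was at 147 and 236 CPM from 22.5 and 29.8. Lyz2, lysozyme, was at 13465 and 11146 CPM from 2689 and 2948.

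Of the endoplasmic reticulum chaperones, 11 of 12 were lower in A963 and 11 of 11 in A965, with a median log2 ratio of -1.43 and -2.07, and of -1.04 and -1.45 by median-of-ratios. Calr, calreticulin, was at 70.2 and 70.5 CPM in the Camp and Ltf cells of A963 and A965 from 651 and 853 CPM. Hspa5, the chaperone BiP, was at 102 and 88.1 CPM from 401 and 501. Of the ribosomal protein genes, 134 of 135 were lower in A963 and 114 of 128 in A965, with a median of -1.33 and -0.74. By median-of-ratios those medians were -0.73 and -0.05, so in A965 the ribosomal difference was no larger than that of all genes.

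Transcription factors moved in both directions. By CPM, of 13 counted in A963, 4 were higher and 6 lower, and of 11 in A965 1 was higher and 5 lower, beside 34.4% and 36% of all genes that were lower. By median-of-ratios it was 5 higher and 5 lower in A963 and 5 and 3 in A965. The median log2 ratio went from -0.35 to 0.11 in A963 and from -0.10 to 0.56 in A965. That scaling called 561 of all genes higher in both hashtags, against 140 by CPM, and 247 lower, against 1817. Its shares of all genes within each hashtag are not given, so the list counts by median-of-ratios in this paragraph are values only. Cebpe, which encodes C/EBPε, was at 685 CPM in A963 and 669 CPM in A965, from 430 and 556 CPM, and had counts in 99.4% of the Camp and Ltf cells. Gfi1, the repressor that favours the granulocyte path, was at 17.6 and 17.3 CPM from 82.9 and 71.8, Cebpa at 11.9 and 5.45 CPM from 82.9 and 56.9, and Myb, a factor of dividing progenitors, at 44.8 and 28.2 CPM from 179 and 91.5. Spi1, which encodes PU.1, lay close in both sets by CPM, at 362 and 418 CPM from 372 and 413. Cybb, the membrane subunit of the phagocyte oxidase, was at 959 and 1089 CPM from 278 and 657, and was the 1 of 6 oxidase genes called by CPM in each hashtag. By median-of-ratios 6 of 6 were higher in each hashtag, and the median log2 ratio went from 0.47 to 1.07 in A963 and from 0.35 to 1.03 in A965. Of the receptors and adhesion genes, 6 of 22 were higher and 8 lower in A963 by CPM, and 4 and 5 of 20 in A965, where the share lower was near or under that of all genes. By median-of-ratios 7 of 21 were higher and 2 lower in A963, and 7 and 0 of 19 in A965, and the median turned from -0.26 to 0.28 and from -0.43 to 0.19. Itgam, the CD11b integrin chain, was at 341 and 329 CPM from 162 and 214.

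Cells on the other side of the Retnlg and Mmp9 limit met the same rule except that Retnlg and Mmp9 together reached at least 5 counts per 10000. These late neighbours were 107 cells of A963 (2.27%, 1.86 to 2.74%) and 270 of A965 (4.85%, 4.30 to 5.45%), a ratio of 2.14 (1.70 to 2.70). They had fewer cell cycle transcripts than the Camp and Ltf cells and more Mmp8, Fpr2, S100a6 and Slpi. In both hashtags, 62 of 5945 genes were higher in the late neighbours (1.04%) and 192 lower (3.23%). Within A963 it was 3.61% higher and 10.6% lower, and within A965 1.42% and 5.5%. The split was 92 higher and 87 lower by median-of-ratios, and 128 and 168 without the 10 most abundant genes.

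Of 20 G2/M genes, 19 were lower in the late neighbours of A963 and 10 in those of A965, with median log2 ratios of -0.98 and -0.59; by median-of-ratios the A965 count was 6 and its median -0.43. Of 16 S phase genes, 10 and 15 were lower, with medians of -0.74 and -0.90. Tk1, thymidine kinase, was at 142 CPM in the Camp and Ltf cells and 55.6 in the late neighbours of A963, and at 150 and 68.4 CPM in A965. Top2a, the topoisomerase of dividing cells, went from 203 to 96.8 CPM and from 230 to 117 CPM, and Pcna, the sliding clamp of DNA replication, from 334 to 173 CPM and from 304 to 141 CPM. The DNA ligase Lig1, the dUTPase Dut, the histone variant H2ax and 3 histone genes with near-identical copies, Hist1h2ao, Hist1h2ap and H2ac11, were also among the 10 genes named as lower, with ratios from 0.406 to 0.522. Ms4a3, expressed in granulocyte-monocyte progenitors, was also lower, at 158 CPM from 307 in A963 and 160 CPM from 323 in A965.

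Of 7 gelatinase granule genes counted in A963, 5 were higher in the late neighbours, as they were in A965, but Retnlg and Mmp9 among them chose the cells. The other 3 were Adam8, Cfp and Mmp25. Adam8, a metalloprotease, was at 33.4 CPM in A963 and 37.8 in A965, from 4.18 and 8.05 CPM. Fpr1 and Fpr2, receptors for formylated bacterial peptides, were higher as well: Fpr2 was at 364 and 404 CPM from 98.2 and 142, and Fpr1 at 47.8 and 42.7 CPM from 3.22 and 4.73. Mmp8, the neutrophil collagenase, was at 151 and 123 CPM from 1.81 and 4.88 CPM. It had the largest log2 ratio of the secondary granule list in each hashtag, while Camp and Ngp were within 1.5-fold. Mmp8 lay in few cells: 10 late neighbours held 81.8% of its counts in A963 and 62.0% in A965. Without those counts it was at 27.5 and 46.7 CPM. After thinning, 19.6% and 17.4% of the late neighbours had a count, against 1.10% and 1.57% of the Camp and Ltf cells. Slpi, a protease inhibitor, was at 528 and 487 CPM from 224 and 179, and Plbd1 at 442 and 321 CPM from 183 and 143. The actin-capping protein Capg was at 250 and 254 CPM from 112 and 120, the galectin Lgals3 at 675 and 751 CPM from 312 and 404, and Ly6g at 639 and 457 CPM from 321 and 250. S100a6, a calcium-binding protein, was at 737 and 1794 CPM from 243 and 577, and the 4 Ifitm genes summed to 7053 and 11604 CPM from 3346 and 7506 CPM.

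Most Camp and Ltf cells held transcripts of dividing cells. With each cell thinned to 8800 counts, 84.2% of the cells in A963 (81.9 to 86.3%) and 92.2% in A965 (90.6 to 93.7%) had at least 5 counts summed over 20 G2/M genes. Without thinning the shares were 90.7% and 97.6%. The early neighbours had 80.9% (71.4 to 88.2%) and 99.5% (97.2 to 100.0%), and the late neighbours 43.0% (33.5 to 52.9%) and 60.7% (54.6 to 66.6%). The late neighbours therefore had a lower share than the Camp and Ltf cells in both hashtags, with intervals that did not overlap. The summed G2/M level ran in the same direction, at 2656 CPM in A963 and 3013 CPM in A965 against 1326 and 1889 CPM in the late neighbours. For 16 S phase genes the thinned shares were 74.6% and 83.3% in the Camp and Ltf cells, 97.9% and 100% in the early neighbours, and 34.6% and 37.4% in the late neighbours. As a measure of background, 38.9% and 52.0% of Dntt-positive lymphoid cells, and 74.98% and 77.2% of all cells outside the rule, had at least 5 G2/M counts, so the share counts cells with such RNA and is no cycle phase.

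Among the Camp and Ltf cells, more Ltf went with less Prtn3 and with more Cd177, Plbd1 and Ifitm6, while Camp was level. The cells of both hashtags were put in 4 bins by Ltf per 10000, with limits at 62.3, 83.7 and 106.5. The bins held 316, 265, 267 and 239 cells of A963 and 258, 308, 307 and 335 of A965. From the lowest bin to the highest, Prtn3 was at 490, 208, 144 and 99.5 CPM in A963 and at 1361, 831, 542 and 398 CPM in A965. Cd177 was at 895, 1162, 1312 and 1495 CPM and at 946, 1214, 1401 and 1624 CPM. Plbd1 was at 82.9, 151, 234 and 340 CPM in A963 and at 75.5, 106, 165 and 220 CPM in A965. These 3 genes kept 1 direction through all 4 bins in both hashtags.

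Ifitm6 was at 1299, 2252, 2861 and 3528 CPM in the bins of A963 and at 3952, 4573, 4924 and 5239 CPM in those of A965. The lowest A965 bin thus lay above the highest A963 bin. Fcnb, ficolin B, an early neutrophil gene, was at 1754, 1507, 1384 and 1120 CPM and at 1528, 1388, 1313 and 1168 CPM. Ly6g went from 194 to 481 CPM across the bins of A963, but only from 172 to 286 CPM across those of A965, where the highest 2 bins, at 288 and 286 CPM, were alike. Camp stayed between 57819 and 63441 CPM in A963 and between 44269 and 46341 CPM in A965.

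The G2/M share was 94.6%, 86.8%, 82.4% and 69.5% from the lowest to the highest bin of A963, where the summed G2/M level was 3076, 2630, 2497 and 2129 CPM. In A965 the share was 96.5%, 95.8%, 90.9% and 86.9%, but the summed level was 3005, 2942, 2945 and 3157 CPM, so no order is read from the A965 shares. Mki67, which encodes the proliferation antigen Ki-67, was at 311, 281, 328 and 307 CPM in the bins of A963 and at 301, 305, 336 and 412 CPM in those of A965. The median depth per cell was lower in the highest bin, 14897 counts against 18964.5 in A963 and 24232 against 28112.5 in A965; its part in these orders was not tested, beyond the thinning of the shares.

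**Figure D3:**
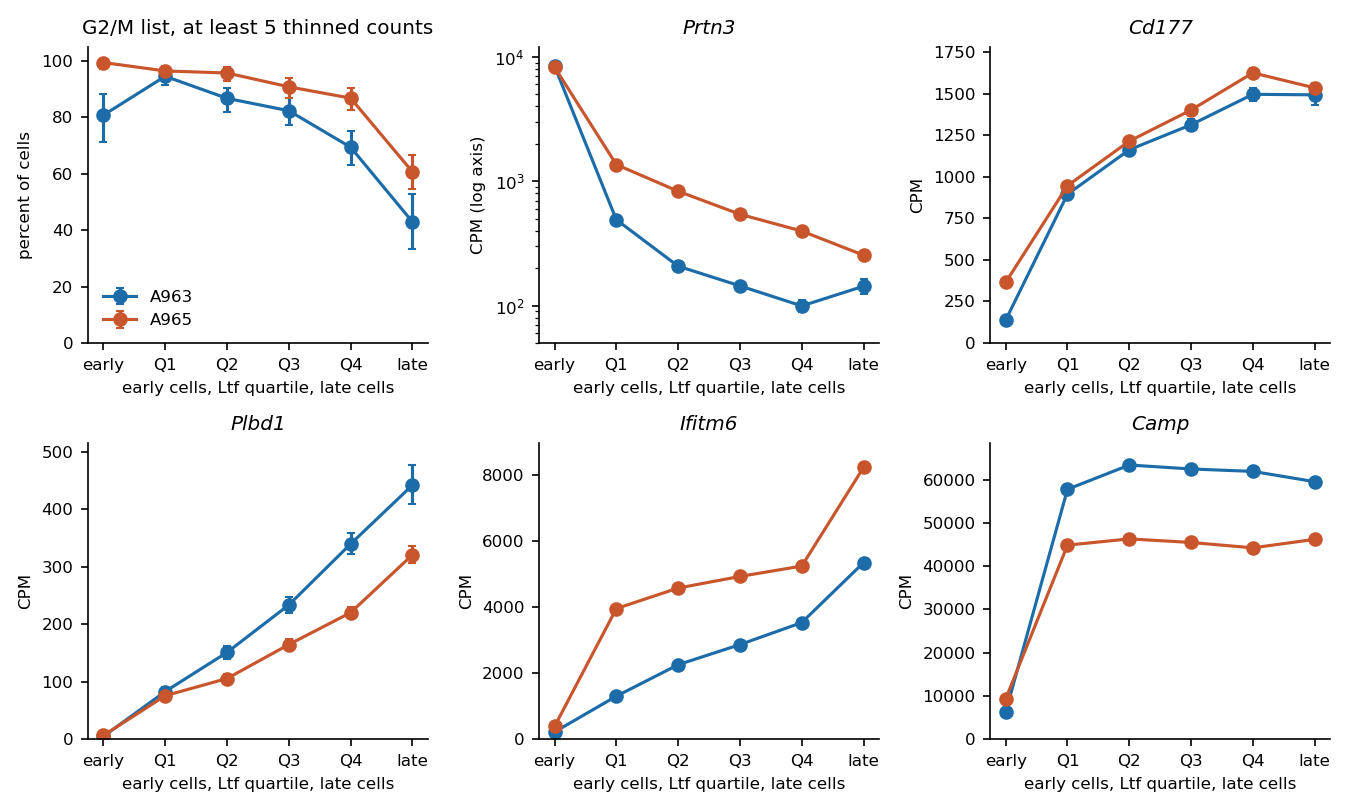
Early neighbours, the 4 Ltf bins of the Camp and Ltf cells (Q1 lowest, Q4 highest) and late neighbours, for A963 (blue) and A965 (orange); the first panel is the percent of cells with at least 5 thinned G2/M counts, the others CPM, with Prtn3 on a log axis and 95% counting intervals as bars. Prtn3 is lower and Cd177, Plbd1 and Ifitm6 are higher from Q1 to Q4 in both hashtags, and Camp is level from Q1 to Q4 with A963 above A965.

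The Camp and Ltf cells of A965 had more RNA of the Ifitm genes, the stefins, Prtn3, S100a6, Saa3 and Lrg1 than those of A963. The secondary granule genes counted, with Camp and Ltf of the rule among them, were within 1.5-fold. Retnlg, which the rule limited in both hashtags, was at 76.3 CPM in A963 and 120 CPM in A965 (1.58-fold). It had counts in 45.0% and 71.9% of cells. Of 6373 genes at 10 CPM or more, 98 were at least 1.5-fold higher in A965 (1.54%) and 57 lower (0.894%). By median-of-ratios 142 were higher and 32 lower, and by totals without the 10 most abundant genes 111 and 183. The median log2 ratio of all genes was -0.04 by CPM, 0.07 by median-of-ratios and -0.12 without those 10 genes.

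All 4 Ifitm genes measured were higher in A965, with a median log2 ratio of 1.24. These genes encode small membrane proteins that hinder the entry of viruses, and many cell types raise them in response to interferons. Ifitm3 was at 516 CPM in A963 and 1612 CPM in A965, 3.13-fold higher (3.06 to 3.19), with counts in 91.6% and 99.8% of cells. Ifitm2 was at 498 and 1136 CPM (2.28-fold, 2.23 to 2.33), Ifitm6 at 2309 and 4686 CPM (2.03-fold, 2.01 to 2.05) and Ifitm1 at 23.3 and 72.6 CPM (3.12-fold). The 4 genes lie within 63.1 kb on chromosome 7 (GRCm38). The direction was the same outside the rule and its neighbours, where Ifitm3 was at 438 and 901 CPM and Ifitm6 at 129 and 479 CPM. Of 5 other interferon-stimulated genes counted, 0 were higher and 1 was lower, Bst2 (tetherin), at 35.8 CPM in A963 and 19.0 in A965; its log2 ratio of -0.66 was -0.16 when the cells marked by Scrublet were left out.

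**Figure D4:**
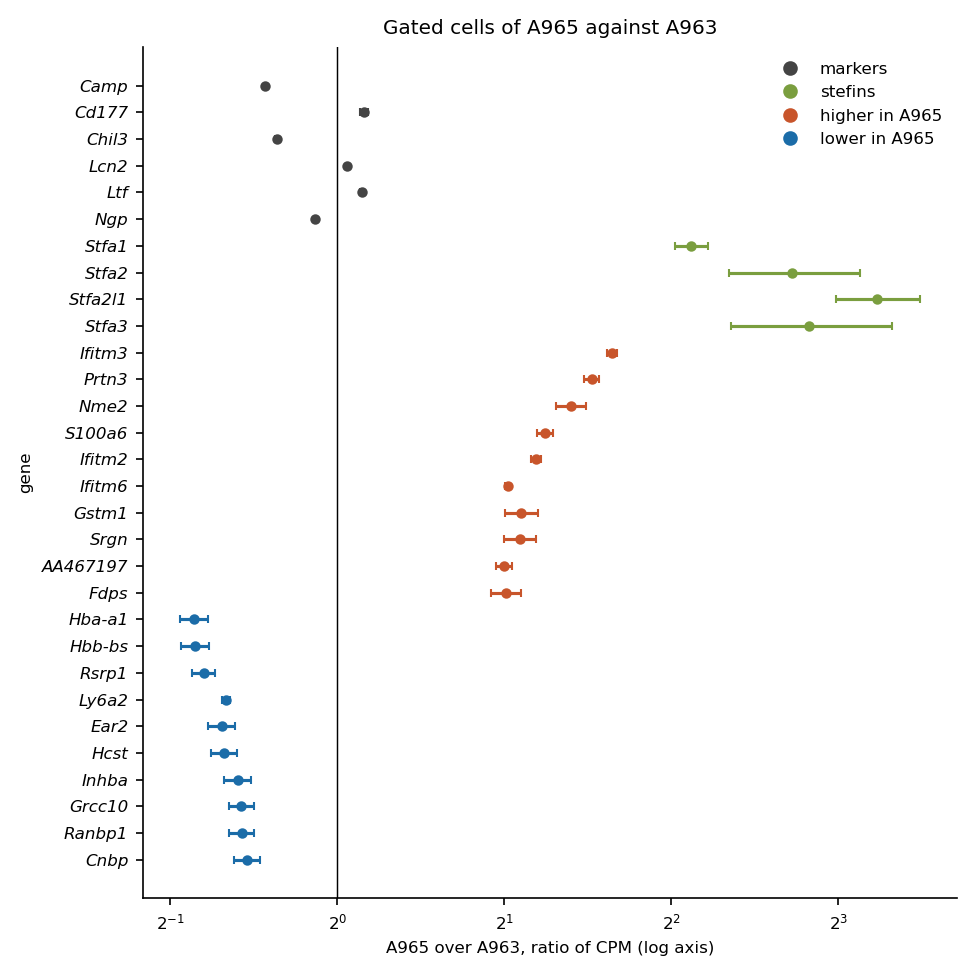
Ratio of CPM, A965 over A963, in the Camp and Ltf cells on a log2 axis, with 95% counting intervals: the 6 markers in grey, 4 stefins in green, the 10 named genes higher in A965 in orange and the 10 lower in blue. The markers lie between 0.742 and 1.12, the stefins between 4.35 and 9.40 and Ifitm3 at 3.13.

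The stefins, small inhibitors of cysteine proteases of the cathepsin family, had some of the largest ratios, but in few cells. Stfa1 was at 47.5 CPM in A963 and 206 CPM in A965 (4.35-fold, 4.06 to 4.66), and Stfa2l1 at 7.14 and 67.2 CPM (9.40-fold, 7.93 to 11.2). In A963, 1 cell held 60 of the 142 Stfa2l1 counts and 1 held 30 of the 61 of Stfa2, and without that cell each was at 4.13 and 1.56 CPM. Stfa2 was at 3.07 and 20.3 CPM (6.61-fold, 5.08 to 8.74) and Stfa3 at 2.06 and 14.6 CPM (7.06-fold, 5.13 to 9.97). Cstb, the fifth list member counted, was not called, so 4 of 5 were higher, with a median log2 ratio of 1.21 by CPM. The 4 Stfa genes are near-identical copies within 299 kb of chromosome 16 (GRCm38), and how the counts were divided among them is uncertain. Against cells chosen by sex-linked counts, A963 with Xist alone and A965 with Y-linked genes alone, the Stfa3 log2 ratio was 0.45 instead of 1.03, under the 1.5-fold limit.

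With cells thinned to 8800 counts, 11.6% of the cells in A963 (9.75 to 13.6%) and 25.2% in A965 (22.8 to 27.8%) held at least 1 count of the 4 Stfa genes, and 9 cells (0.828%) and 70 cells (5.79%) held at least 10. The 10 cells with the most held 61.6% of the Stfa counts in A963 and 34.3% in A965. The early neighbours had 6.38% and 5.15% with at least 1 count and 0 cells with 10 in either hashtag, which allows up to 3.85% in A963 and 1.88% in A965. In the late neighbours the shares with at least 1 count were 9.35% in A963 (4.57 to 16.5%) and 40.4% in A965 (34.5 to 46.5%), and 15.6% of A965 cells, 42 in number, held at least 10. In A965 the share of stefin cells was thus larger at each stage from early to late, and in A963 the intervals of the Camp and Ltf cells and the late neighbours overlapped. As a background, Stfa1 alone was found in 1.40% of 214 thinned globin-rich cells in A963 and 9.09% of 33 in A965. Among Dntt-positive cells it was found in 1.44% and 3.06%. The like shares for Stfa1 alone were 7.54% and 15.9% in the Camp and Ltf cells, and 4.26% and 3.61% in the early neighbours.

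Cystatin-domain genes between the stefins, chosen after their values were seen, had the same direction. Cstdc5 was at 29.7 CPM in A963 and 244 CPM in A965 (8.22-fold, 7.56 to 8.95), and its log2 ratio with 10 CPM added, 2.68, was the largest of all genes. Cstdc4 was at 6.39 and 33.7 CPM (5.28-fold, 4.39 to 6.40). Cstdc5 was as uneven as the stefins: after thinning, 5.70% of A963 cells and 14.0% of A965 cells had a count, and the 10 highest cells held 77.0% and 48.6% of its counts. Both genes lie inside the stretch of chromosome 16 from Stfa2l1 to Stfa3 (GRCm38.p6). Single cells weighed on the Cstdc5 level of A963: 1 held 333 of the 591 counts, and without it the level was 12.99 CPM, against 222 CPM in A965 without its highest cell. In the late neighbours of A963 Cstdc5 was at 338 CPM, but 1 cell held 495 of its 516 counts and without it the level was 14.0 CPM, against 669 CPM in A965, or 555 CPM without its highest cell.

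**Figure D5:**
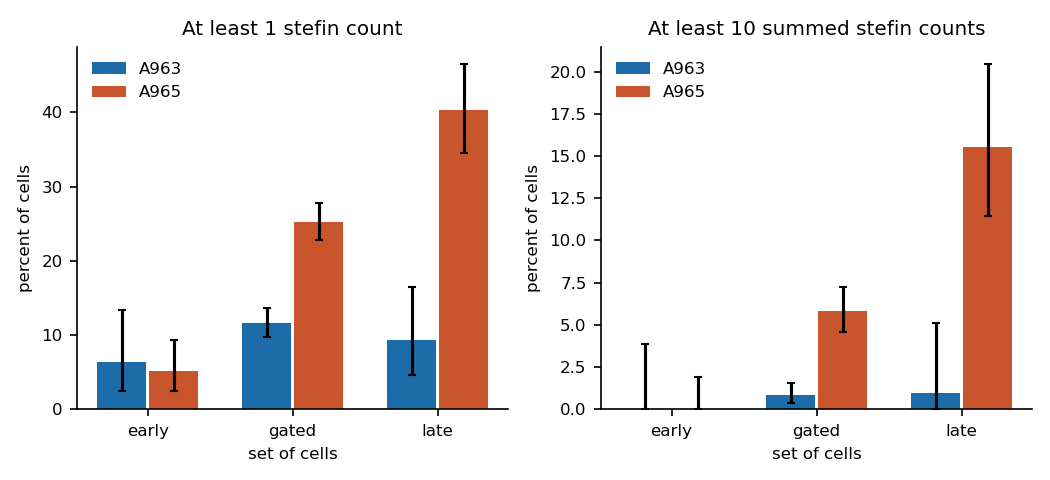
Percent of cells with at least 1 (left) and at least 10 (right) summed counts of Stfa1, Stfa2, Stfa2l1 and Stfa3 in the early neighbours, the Camp and Ltf cells and the late neighbours of A963 and A965, each cell thinned to 8800 counts; bars of error are 95% Clopper-Pearson intervals. The A965 share is 25.2% in the Camp and Ltf cells and 40.4% in the late neighbours, against 11.6% and 9.35% in A963.

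Saa3 and Lrg1, made in acute inflammation, were higher in A965. They were the 2 of 5 genes called in the list of inflammatory and acute-phase genes, whose median log2 ratio was -0.15. Saa3, serum amyloid A3, was at 4.43 CPM in A963 and 41.0 CPM in A965 (9.27-fold, 7.47 to 11.6), with thinned counts in 2.21% and 17.7% of cells. Unlike the stefins, Saa3 was higher in the early neighbours, at 14.2 and 83.4 CPM, than in the Camp and Ltf cells, and in A965 it was at 22.4 CPM in the late neighbours. Lrg1, a secreted glycoprotein found in neutrophil granules, was at 378 and 661 CPM (1.75-fold). Outside the rule and its neighbours both genes had the same direction, Saa3 at 4.86 and 38.3 CPM and Lrg1 at 34.04 and 105.4 CPM.

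Prtn3 and Srgn, genes of the azurophil stage, were higher in A965: Prtn3 at 269 and 772 CPM (2.87-fold, 2.79 to 2.96) and Srgn at 55.6 and 119 CPM (2.13-fold). They were the 2 of 9 azurophil genes called, and the list's median log2 ratio was 0.22. Elane, which the rule limited in both hashtags, is among the 9. The Prtn3 log2 ratio was 1.49, and it was also 1.49 when Elane had to be under 5. Mpo was at 80.1 and 110 CPM and Ctsg, in the other direction, at 45.7 and 32.0 CPM. In each of the 4 Ltf bins Prtn3 was higher in A965.

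Other named genes higher in A965 were S100a6, at 243 and 577 CPM (2.37-fold), AA467197, at 213 and 425 CPM (2.00-fold), Gstm1, at 55.5 and 119 CPM (2.14-fold), Fdps, an enzyme of isoprenoid synthesis, at 65.2 and 131 CPM (2.01-fold), and Nme2, a nucleoside diphosphate kinase, at 59.0 and 156 CPM (2.63-fold). Of the receptors and adhesion genes, Ceacam10 at 23.6 and 55.8 CPM (2.37-fold) and Csf2rb, the shared chain of the GM-CSF and IL-3 receptors, at 53.8 and 91.8 CPM (1.71-fold) were higher, and Kit was lower, among 20 counted. Of 113 ribosomal protein genes, 9 were called higher and 0 lower, with a median log2 ratio of 0.29. Rps2 led them, at 686 and 1541 CPM. Ribosomal protein genes have many processed copies, which could take or give counts.

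Several genes were lower in A965, and of the 6 named ones called, Rsrp1 alone stayed past 1.5-fold under every alternative run. Hba-a1 and Hbb-bs, adult globin chains, were at 123 and 115 CPM in A963 and 67.6 and 63.6 CPM in A965, with log2 ratios of -0.77 and -0.76. Without the cells marked by Scrublet those ratios were -0.11 and -0.18. The 10 cells with the most Hba-a1 held 61.9% of its counts in A963 and 33.5% in A965, and without them it was at 46.7 and 44.9 CPM. Of 5 erythroid markers counted 4 were called lower, and their median log2 ratio of -0.76 was -0.18 without the marked cells. Irf8, a factor of monocyte and dendritic cells, was at 46.6 CPM in A963 and 17.1 in A965, a log2 ratio of -1.06 that was -0.48 without the marked cells and -0.21 when Camp had to reach 400.

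Ly6a2, at 1506 CPM in A963 and 949 CPM in A965 (0.630), Ear2, an eosinophil-associated ribonuclease, at 121 and 75.1 CPM (0.619), and Hcst, the adaptor DAP10, at 138 and 86.2 CPM (0.625), were lower by CPM. By median-of-ratios their log2 ratios were -0.52, -0.50 and -0.49, under the limit. Rsrp1, an arginine and serine rich protein gene, was at 167 and 95.9 CPM (0.574). Inhba, Grcc10, Ranbp1 and Cnbp, the remaining 4 of the 10 named lower genes, had ratios from 0.661 to 0.687 and were not called. Kit, at 13.9 and 2.39 CPM, was in 9.11% and 2.40% of thinned cells.

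Few genes of the neutrophil lists differed between the hashtags by 1.5-fold, and few of all 6373 genes did (1.54% higher and 0.894% lower). At such shares, 0 called in a short list does not set that list apart. Of 9 azurophil genes 2 were higher, of 6 S100 genes 1 (S100a6) and of 6 gelatinase granule genes 1 (Retnlg, limited by the rule). Of 13 secondary granule genes, 0 were called in either direction. Camp and Ltf, which the rule used in both hashtags, are among the 13, so this is in part set by the choice of cells. The median log2 ratio of the 13 was -0.14 by CPM and -0.01 by median-of-ratios. Of the 13, the gene with the highest ratio was Pglyrp1, a peptidoglycan recognition protein, at 4588 and 5652 CPM (1.23-fold). None was called of 6 oxidase genes (median 0.13), of 20 G2/M genes (0.17), of 16 S phase genes (0.01), of 9 endoplasmic reticulum chaperones or of 7 mature neutrophil genes (0.22). Among 11 transcription factors only Irf8 was called. With 1 cell pool per hashtag, a gene under 1.5-fold is not shown to be equal.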

How the data were processed

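The authors deposited raw counts, whole numbers for each gene in each cell of 1 library, with the hashtag in the cell's name. The submitters' processing notes name Seurat 4.2.0, R 4.2.1 and the build GRCm38 with no role; aligner, annotation and counting tool are not given in the sources used here. Reads carry a molecular identifier, per the labels, but whether molecules or reads were counted is not stated. Values of 2 were 54.7% as frequent as values of 1, and repeated reads of 1 molecule would make the counting intervals too narrow. The gene CT010467.1 took 2.30% of the counts of the Camp and Ltf cells.

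The members and gene lists were chosen with earlier results of these data known. Cells were filtered at 500 genes and 20% mitochondrial counts, which removed 7 of 10535 hashtagged cells. CPM were made from the sum over the cells of a set, over 25661 genes. Ratios have exact conditional binomial 95% intervals, shares Clopper-Pearson intervals. Where cells are thinned, 8800 counts were drawn from each without replacement (seed 1). Globin-rich cells had at least 500 summed globin counts per 10000, and Dntt-positive cells at least 5 of Dntt. Of 256 list genes, 251 were in the table. Genes were named by rule: the 10 largest log2 ratios each way, with 10 CPM added, at 100 CPM or more and detected in 25% or more of the higher set's cells, and in both hashtags for neighbours; mitochondrial, ribosomal, Gm and Rik names, sex-linked genes and the genes of the rule were left out. List members were named as examples. Alternatives changed each limit of the rule, doublet removal, the scaling, the CPM added, thinning, weighting and the choice of cells by sex-linked RNA; 2 scalings for the neighbours, and levels without the cell highest in a gene, were added after seeing the data. Data for A965 over A963 were simulated on 25661 genes, with counting error only and no spread between cells or animals. All 50 genes at each of 4 fold sizes, 2-fold and 4-fold each way, passed 1.5-fold, and 0 of 5893 unchanged genes did. Because those sizes lie past the limit, this checks the calculation only. The intervals held the true ratio for 44 to 48 of 50 genes, lowest at 4-fold higher, and for 94.9% of unchanged genes. Python 3.11.15, numpy 2.4.6, scipy 1.17.1, pandas 2.3.3, scanpy 1.11.5 (Scrublet) and matplotlib 3.10.9 were used.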

Additional observations from a re-analysis of the deposited data

Results flagged for a closer look

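Of the cells that the authors named doublets, which enter no comparison above, 17.4% met the same gene rule as the Camp and Ltf cells (33 of 190, 12.3 to 23.5%). Saa3 moved in opposite directions from the Camp and Ltf cells to the late neighbours in the 2 large hashtags, with a log2 ratio of 0.59 in A963 (11.8 from 4.43 CPM) and -0.66 in A965 (22.4 from 41.0 CPM). In the late neighbours of A963, 1 cell held 16 of the 18 counts, and without it Saa3 was at 1.34 CPM, below the Camp and Ltf cells, so the opposite direction rests on that cell. The difference between the hashtags was not tested.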

How the results depend on the processing

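The share of cells that met the rule moved with its limits. In A963 and A965 it was 21.5% and 15.1% (ratio 0.704) with Camp of at least 400, 20.9% and 20.6% with Ltf of at least 40, 21.1% and 19.1% with Elane under 5, and 18.6% and 15.7% (ratio 0.843) with Retnlg plus Mmp9 under 2. The count of genes lower in A965 than in A963 was 32 by median-of-ratios, 183 without the 10 most abundant genes and 106 for A963 cells with Xist only against A965 cells with Y-linked RNA only; with 1 CPM added 155 were higher and 233 lower. The share with G2/M counts was 93.8% in A963 and 97.7% in A965 at a limit of 2 counts, 67.6% and 78.2% at 10, and 90.7% and 97.6% without thinning. For the Camp and Ltf cells over the early neighbours, 2773 genes were lower with 1 CPM added, 510 were higher and 557 lower without the 10 most abundant genes, and 561 and 247 by median-of-ratios. For the late neighbours, 104 were higher and 503 lower with 1 CPM added, 128 were higher without the 10 most abundant genes, and 87 were lower by median-of-ratios. Prss34, a basophil protease at 2.92 CPM in A963 and 14.7 in A965 (log2 ratio 0.94), reversed to -1.25 with Camp of at least 100 and to -0.028 for the cells chosen by sex-linked RNA; 1 A965 cell held 387 of its 492 counts, and without it the level was 3.15 CPM. Causes were not tested. Of the other values, mostly of single genes and lists, 948 kept within a set margin of the value reported under alternatives. Another 649 moved beyond that margin without a reversal of a called direction. For the genes and most lists of A965 over A963, and for the G2/M shares, the margin followed counting error. For the neighbour comparisons, and the all-gene and ribosomal medians of A965 over A963, it was a fixed log2 step. No paired analysis was possible because the series holds 1 library and its hashtags share no replicate numbers. The limits are the single library, the unknown origin of each hashtag, and the 94 to 270 neighbour cells; genes under 10 CPM are not judged.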

Other observations

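The small hashtags were in no comparison, and their Camp and Ltf cells, 5 in A961, 14 in A962 and 7 in A964, had these levels of the genes that differed between A963 and A965. Those of A961 and A962 did not match the Xist level of the other cells of their own hashtags, so the levels are not set against A963 or A965. Ifitm3 was at 1192, 1437 and 1195 CPM, Ifitm2 at 643, 1335 and 919 CPM, and Ifitm6 at 2847, 4729 and 4029 CPM. Prtn3 was at 411, 547 and 826 CPM and Lrg1 at 728, 581 and 509 CPM. S100a6 was at 190, 1258 and 287 CPM. Stfa1 had 0 counts in A961 and A964 and was at 18.5 CPM in A962, and Saa3 had 0 counts in A961 and was at 46.4 CPM in A962 and 29.3 CPM in A964.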
